A study of Mus musculus with 20 samples.

Results

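Of the 162113 regions obtained by merging 4 lists of ATAC-seq peaks from mouse embryonic gut mesenchyme, 7343 (4.53%) held a peak in control stomach, in Eed KO stomach and in Eed KO intestine and none in control intestine. These gastric regions gained by the Eed-null intestine, called members from here on, were chosen by the presence or absence of a listed peak in each of the 4 conditions, with peaks merged when they shared at least 1 base. The cells came from stomach and intestine of embryos at E13.5, labelled C57BL/6 although the floxed *Eed* and reporter alleles came from mixed backgrounds, and were sorted by FACS for GFP. Controls were Bapx1-cre;Rosa26mTmG and Eed KO embryos were Eedfl/fl;Bapx1-cre;Rosa26mTmG, so both genotypes carried the Cre and the reporter, and only cells in which the *Bapx1* promoter had driven Cre were collected. RNA-seq and ATAC-seq each had 2 libraries for each of the 4 combinations of organ and genotype, 8 of each kind in all. The ATAC replicates were pooled before peaks were called, and the 1 deposited list per condition used here holds no value per replicate, so no difference in accessibility was tested.

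*Eed* encodes a core subunit of Polycomb repressive complex PRC2, which places a repressive methyl mark on histones and holds many developmental genes silent in tissues where they are not used. ATAC-seq cuts DNA where chromatin is open, so a peak marks an accessible stretch such as a promoter or an enhancer. In the gut, the mesenchyme of stomach and intestine starts from a continuous sheet of mesoderm, and homeobox factors such as *Barx1* in the stomach and *Nkx2-3* in the intestine mark the separate organs.

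Sequences are printed here for 8 members, whose effect on RNA was not tested. Those linked to *Mecom*, *Barx1*, *Six2* and *Gata4* lay near transcription factor genes with more RNA in control stomach than in control intestine, that of *Stmn2* covered the start of a gene with little RNA in control intestine, and the *Il31ra* region had the highest peaks of all members. Each line gives the middle 200 bases of the region, or for *Il31ra* all 131 bases, from the plus strand of GRCm38, read 5′ to 3′. A region joins the peaks of 3 lists, and its middle is not always under each of them: the stretches of Barx1 region 2 and Stmn2 region 1 lie under the Eed KO stomach peak alone, that of Six2 region 1 under no control stomach peak, and that of Mecom region 1 under a control stomach peak for 13 of its bases. Capitals mark matches, on either strand, to the letters GATAA (GATA factors), CTGTCA (MEIS and TGIF factors), TGTTTAC (forkhead factors), GGAATG (TEAD factors) or CATCTG (an E-box bound by HAND and TWIST dimers). In the order printed, the stretches are chr3:30546888-30547087, chr13:48657857-48658056, chr13:48686338-48686537, chr17:85657059-85657258, chr17:85737342-85737541, chr14:63317129-63317328, chr3:8509830-8510029 and chr13:112578179-112578309.
Mecom region 1: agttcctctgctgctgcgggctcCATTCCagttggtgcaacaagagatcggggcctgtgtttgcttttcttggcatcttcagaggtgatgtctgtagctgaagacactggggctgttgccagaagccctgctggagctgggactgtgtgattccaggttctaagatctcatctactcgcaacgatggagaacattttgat
Barx1 region 1: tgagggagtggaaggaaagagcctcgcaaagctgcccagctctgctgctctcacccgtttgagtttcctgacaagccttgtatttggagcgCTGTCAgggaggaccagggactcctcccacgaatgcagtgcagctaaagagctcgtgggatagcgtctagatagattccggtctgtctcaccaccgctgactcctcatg
Barx1 region 2: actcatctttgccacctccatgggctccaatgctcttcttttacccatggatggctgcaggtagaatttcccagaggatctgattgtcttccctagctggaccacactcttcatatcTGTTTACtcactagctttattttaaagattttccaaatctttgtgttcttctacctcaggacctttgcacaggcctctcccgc
Six2 region 1: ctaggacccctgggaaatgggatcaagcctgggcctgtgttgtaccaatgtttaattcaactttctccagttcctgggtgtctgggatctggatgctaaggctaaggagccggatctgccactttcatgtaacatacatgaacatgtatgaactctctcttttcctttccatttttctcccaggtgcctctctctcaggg
Six2 region 2: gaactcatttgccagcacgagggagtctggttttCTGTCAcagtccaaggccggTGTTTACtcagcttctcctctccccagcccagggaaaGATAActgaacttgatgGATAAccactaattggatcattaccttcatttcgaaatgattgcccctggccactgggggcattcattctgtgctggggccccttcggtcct
Gata4 region 1: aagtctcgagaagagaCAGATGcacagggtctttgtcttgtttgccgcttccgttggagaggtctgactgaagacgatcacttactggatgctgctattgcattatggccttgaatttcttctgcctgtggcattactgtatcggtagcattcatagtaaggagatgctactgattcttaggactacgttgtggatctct
Stmn2 region 1: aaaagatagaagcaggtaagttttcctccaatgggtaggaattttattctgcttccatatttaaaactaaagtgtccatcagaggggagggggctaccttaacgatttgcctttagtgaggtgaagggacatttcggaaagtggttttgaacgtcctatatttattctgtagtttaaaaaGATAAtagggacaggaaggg
Il31ra region 1: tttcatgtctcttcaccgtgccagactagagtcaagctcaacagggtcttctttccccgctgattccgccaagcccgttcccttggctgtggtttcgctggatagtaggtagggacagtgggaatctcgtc

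Over the middle 300 bases of each region, GATAA was found in 34.4% of members and 30.8% of all merged regions, and CTGTCA in 21.4% and 22.9%. TGTTTAC stood in 4.79% of members against 5.32% of all regions, GGAATG in 20.8% against 20.5% and CATCTG in 24.3% against 25.8%. Among the printed stretches, Six2 region 2 held the most matches, with 2 of GATAA and 1 each of CTGTCA and TGTTTAC, and Six2 region 1 and the Il31ra region held none of the letters searched. A match is a description of the letters only.

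The peak values chose the members, so they are given as a description with no test. MACS2, the peak caller used by the authors, gives each peak a fold enrichment over background and a q value, and the q value is given here as its negative log10. Members had a median fold enrichment of 3.0 in control stomach, 2.94 in Eed KO intestine and 3.33 in Eed KO stomach. Regions with a peak in all 4 lists had medians of 4.44, 4.28 and 4.42 in the same lists and 4.48 in control intestine. The median −log10 q of members was 2.64 in control stomach, 2.77 in Eed KO intestine and 3.95 in Eed KO stomach, against 8.95, 9.24 and 9.98 for the regions in all 4 lists. Members were thus mostly low peaks: 3550 (48.3%) reached a −log10 q of 2 in all 3 lists, 775 (10.6%) reached 5 and 149 (2.03%) reached 10. Within a member the highest of the 3 fold enrichments was a median of 1.26 times the lowest, over 1.5 times the lowest in 1312 members (17.9%) and over 2 times in 144 (1.96%). The highest of the 3 came from Eed KO stomach in 3996 members (54.4%), from control stomach in 1842 (25.1%) and from Eed KO intestine in 1505 (20.5%). Members spanned a median of 612 bases, from 131 to 4397, and 7232 of them (98.5%) held exactly 1 peak of each list.

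**Figure D1:**
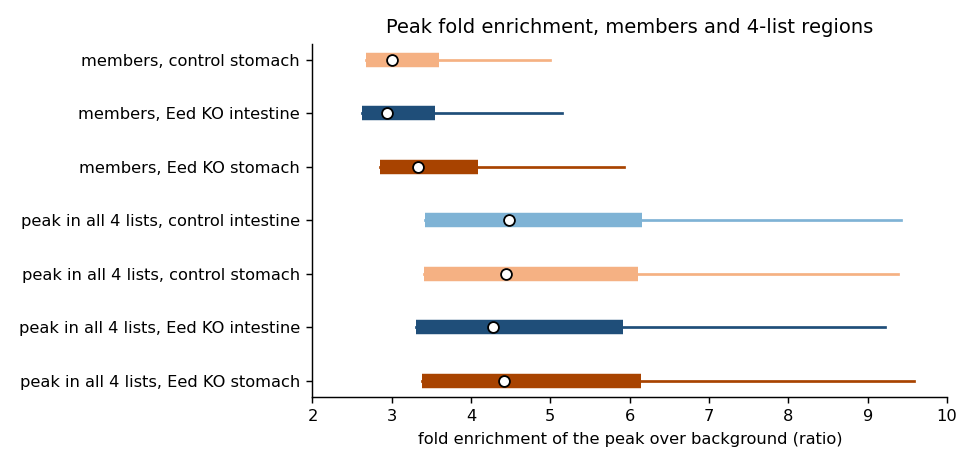
Fold enrichment of peaks over background (ratio) for members in their 3 lists and for regions with a peak in all 4 lists. Circles mark the median, thick bars the middle 50% and thin lines reach the 95th percentile; member medians lie between 2.94 and 3.33 and those of the 4-list regions between 4.28 and 4.48.

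At the edge of the choice, values inside and outside were close. Just inside lay a member in an intron at chr1:13364588-13365407, with −log10 q of 1.57 in control stomach, 2.08 in Eed KO intestine and 1.01 in Eed KO stomach. Just outside lay a region at chr3:153677160-153677827, with 1.37, 2.05 and 1.54 in the same lists and a control intestine peak of 1.01 that kept it from being a member. Of the 74635 regions with a peak in all 4 lists, 3727 (4.99%) had a control intestine −log10 q under 2. A control intestine peak stood within 250 bases of 13 members (0.177%), against 0.514% of all merged regions without a control intestine peak. Within 10 kb the shares were 66.9% (4912 members) and 65.2%, and the median gap of members was 6088 bases. Absence from the control intestine list is absence of a listed peak, and the reads under the members in control intestine were not analysed here.

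The number of members depended on the lengths of the lists. Control intestine had the shortest list, with 103808 peaks, against 115789 in control stomach, 119181 in Eed KO intestine and 116842 in Eed KO stomach. Regions that lacked only a control stomach peak numbered 4131, those that lacked only Eed KO intestine 3333 and those that lacked only Eed KO stomach 4735, so members were the most numerous group of regions in exactly 3 lists. With only the 100000 highest peaks of each list kept, a setting chosen after seeing the data, members numbered 4549, beside 4559 regions that lacked only Eed KO stomach, 4075 that lacked only control stomach and 3728 that lacked only Eed KO intestine. With peaks of a −log10 q of at least 5, members numbered 2409 and regions that lacked only control stomach 2582. Members were therefore the largest of these groups with the deposited lists and at a −log10 q of at least 2, where they numbered 4994, and not in these other settings.

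**Figure D2:**
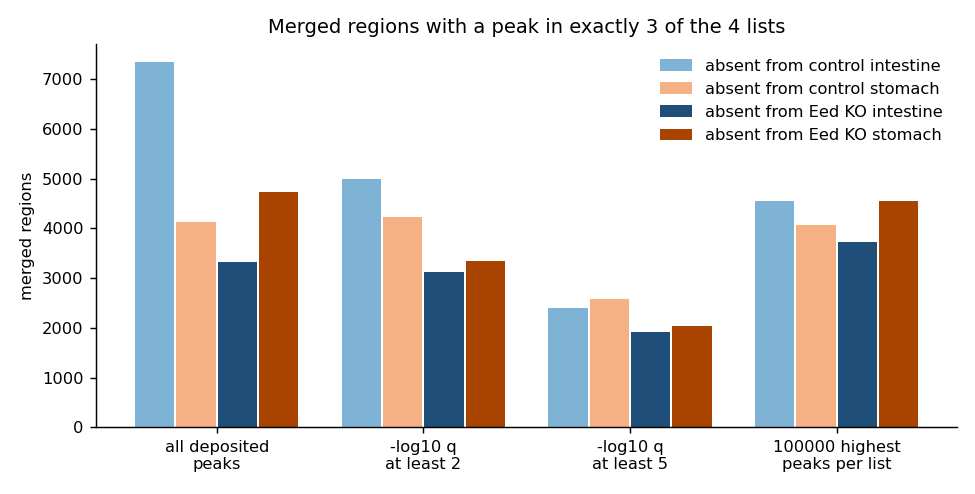
Number of merged regions with a peak in exactly 3 of the 4 lists, by the list that lacks one, for all deposited peaks, peaks cut at a −log10 q of 2 or 5, and the 100000 highest peaks of each list. Members are the bars absent from control intestine: 7343, 4994, 2409 and 4549.

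Position was not used in choosing members. A gene start lay within 1 kb of 308 members (4.19%), against 11.1% of all merged regions and 20.6% of regions in all 4 lists. Introns held the middle base of 48.5% of members, other exons 3.95% and intergenic sequence 43.3%, against 47.2%, 4.72% and 36.9% of all merged regions. Regions that lacked only control stomach lay within 1 kb of a start in 3.68% of cases, and those with peaks in both stomach lists alone in 2.51%, so a low share near starts was also found outside the members. Members made up between 3.78% (X) and 5.07% (14) of the regions of each chromosome. Members with a higher fold enrichment were narrower: the 5219 whose lowest fold enrichment was under 3 had a median width of 714 bases, with 4.43% near a start, and the 138 from 5 to under 10 had 214 bases, with 2.9% near a start.

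**Figure D3:**
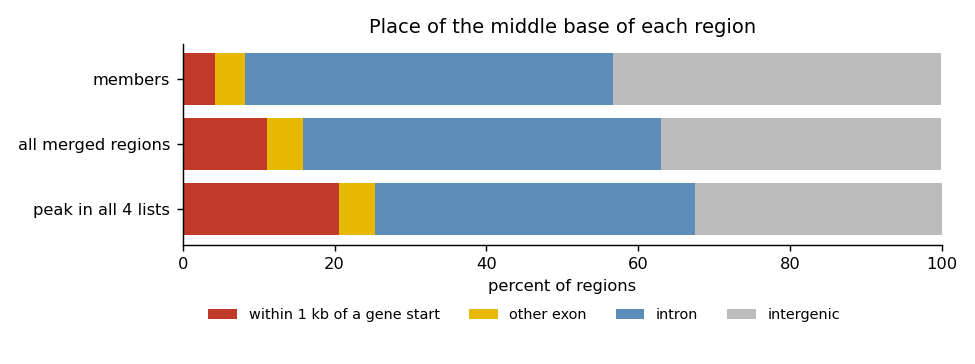
Percent of regions by the place of their middle base, for the 7343 members, all 162113 merged regions and the 74635 regions with a peak in all 4 lists. The share within 1 kb of a gene start is 4.19% for members, 11.1% for all regions and 20.6% for the 4-list regions.

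The base composition of members was near that of other regions away from starts. Their median GC content was 47.7% (all merged regions 48.7%), and members over 1 kb from a start held a mean of 3.94 CpG in the middle 300 bases, against 4.33 in all regions that far from a start. The AP-1 letters TGACTCA were found in 8.01% of members and 6.49% of all regions, or 7.96% against 6.86% over 1 kb from a start. The letters GGGCGG of the GC box stood in 7.01% of members against 11.6% of all regions, but in 6.77% against 7.31% over 1 kb from a start. The homeodomain letters TAATTA were found in 6.4% against 5.72% and the HOX and CDX letters TTTATNG in 13.1% against 13.2%. The core of the CTCF motif was found in 0.885% of members and 0.625% of all regions. GATAA was most frequent, at 37.5%, in regions with peaks in both stomach lists alone, and it stood in 34.5% of regions that lacked only Eed KO intestine, so the 34.4% of members was not the highest share.

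The narrow members at the top of the range are few. The highest lay in an intron of *Il31ra*, an interleukin receptor gene, at chr13:112578179-112578309, with fold enrichments of 28.0 in control stomach, 32.7 in Eed KO intestine and 25.8 in Eed KO stomach. The next, at chr9:24542029-24542211, lay 38889 bases from the start of *Dpy19l1* with fold enrichments of 16.4, 21.8 and 17.8. These were the only 2 members with all 3 values over 10, and both are far narrower than the median member. Between 7.84 and 15.1 lay the values of the next members, near *Gm24079*, *Ear6*, *Pou4f1* (a POU homeobox gene) and *Rps12-ps3*, and the remaining 4 of the top 10, near *Saysd1*, *Gm22088*, *Gys2* (a glycogen synthase gene) and *Gm9540*, had values between 7.55 and 11.0. *Gm22088* lay 102663 bases away and was not linked to that member. None of these 10 regions lay within 1 kb of a start. *Il31ra* RNA was low, 0 and 0 CPM (counts scaled to library size) in control intestine, 0.132 and 0.257 in Eed KO intestine, 0.203 and 0.229 in control stomach and 0.483 and 0.686 in Eed KO stomach, and *Dpy19l1* RNA was alike in all groups, 154 and 139 CPM in control intestine, 132 and 131 in Eed KO intestine, 149.9 and 157 in control stomach and 135 and 122 in Eed KO stomach.

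RNA had no part in choosing the members, and the 8 RNA libraries held between 30236159 and 39606157 gene counts. *Eed* itself was checked first against the labels: it stood at 38.1 and 40.1 CPM in control intestine, 10.7 and 8.59 in Eed KO intestine, 40.1 and 41.5 in control stomach and 11.5 and 7.40 in Eed KO stomach. All 4 KO libraries were thus below all 4 control libraries (log2 fold change −2.02 ± 0.21 (SE) in intestine, adjusted p 0.0046; −0.23 and no longer called with spike-in scaling). The 12 mesenchyme markers summed to between 13719 and 25418 CPM, led by *Col3a1* with 5625 to 9553, and the 12 smooth muscle genes to between 2647 and 7921, led by *Acta2*. In the other checks the gene with the highest mean over the 8 libraries is named in brackets. Epithelium genes, 15 in number, summed to 68.0 to 142 CPM (*Krt19*), macrophage and leukocyte genes to 4.63 to 13.2 (*Lyz2*) and mesothelium genes to 374 to 676 (*Upk3b*). Pancreas and spleen genes summed to 2.14 to 35.2 (*Nkx2-5*, with *Ptf1a*, *Prss1* and *Ins1* at 0), erythroid genes to 0.494 to 23.0 (*Hbb-y*) and skeletal muscle genes to 2.05 to 5.04 (*Actn3*, with *Ckm* at 0). The libraries therefore had the markers of mesenchyme that the labels name, with low levels of epithelial and blood cell genes.

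A member was linked to a gene when that gene had the nearest annotated start and it lay within 50 kb. This linked 5148 members (70.1%; 71.6% of all merged regions) to 4511 genes, of which 3945 had 1 member, 501 had 2, 59 had 3 and 6 had 4. Of these member genes 1928 passed the count filter and were tested, and 2583 did not. Tested member genes had a median of 6 linked regions of any kind, against 2 for all 16218 tested genes, so a member gene is also a gene with many accessible regions around it. *Alx4*, *Gm12243*, *Mir6537*, *Myh14*, *Slc6a11* and *Zfp133-ps* had the most members, 4 each. *Alx4* encodes a homeobox factor of limb and face mesenchyme, and it stood at 5.17 and 5.75 CPM in control intestine, 8.44 and 14.2 in Eed KO intestine, 1.28 and 1.02 in control stomach and 7.91 and 12.1 in Eed KO stomach; its Eed KO intestine change missed the threshold (log2 fold change 1.05 ± 0.3 (SE), adjusted p 0.13).

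The first comparison asks whether the genes beside members changed in RNA in Eed KO intestine against control intestine, the conditions whose lists differ for members. Of the 1928 tested member genes 81 were higher in Eed KO intestine (4.2%; 2.38% of all tested genes) and 3 were lower (0.156%; 0.228% of all), with called meaning an adjusted p under 0.05 and a change of more than 1 on the log2 scale. The median log2 fold change of tested member genes was 0.06, against 0.01 over all tested genes, and these medians were the same with genes that had a group at 0 counts set to their bound. Genes linked to regions with peaks in both Eed KO lists alone had 3.94% higher, those linked to regions in both stomach lists alone 3.37% and those linked to regions that lacked only control stomach 2.3%, so shares above the background were not limited to members. The member nearest to a gene lay a median of 11618 bases from the start in the 81 higher genes and 13844 bases in all tested member genes. Fewer cells of a type and less RNA per cell cannot be told apart in these bulk libraries, and the fold changes are relative to the median gene, which rose by 1.85 on the log2 scale when libraries were scaled to the spike-in. The number of higher member genes was 10 without control intestine replicate 1 (0.499%; 0.358% of all tested genes), 16 without control intestine replicate 2 (0.792%; 0.51% of all) and 39 without Eed KO intestine replicate 2 (1.94%; 1.04% of all).

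Among stomach mesenchyme factors, 5 of a list of 12 genes had members: *Barx1*, *Six2*, *Mecom*, *Sfrp2* and *Tbx3*, with 8 members among them. *Barx1*, a homeobox factor of stomach mesenchyme, stood at 0.534 and 1.48 CPM in control intestine, 9.47 and 13.2 in Eed KO intestine, 627 and 557 in control stomach and 379 and 310.3 in Eed KO stomach. Both Eed KO intestine libraries were above both control intestine libraries, and their mean was 1.91% of the control stomach mean. The change in intestine was 3.53 ± 0.37 (SE) on the log2 scale (adjusted p 0.0047). Its members lay 4926 bases before the start and 22885 bases after it, with fold enrichments of 2.38, 2.32 and 2.86 and of 3.0, 3.06 and 2.72 in control stomach, Eed KO intestine and Eed KO stomach. Around the start itself the control intestine list also had peaks, 14 in all within 55 kb, against 13 in control stomach, 16 in Eed KO intestine and 15 in Eed KO stomach, so the number of peaks there did not separate the organs.

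*Mecom*, which encodes a zinc finger factor, stood at 0.197 and 0.202 CPM in control intestine, 1.69 and 2.25 in Eed KO intestine, 38.8 and 52.5 in control stomach and 40.5 and 39.4 in Eed KO stomach. Eed KO intestine was above control intestine in both libraries and reached 4.31% of the control stomach mean, with a log2 change of 3.28 ± 0.31 (SE, adjusted p 0.0032). This call was lost without control intestine replicate 1. Its member, chr3:30546453-30547523, began 485 bases from the start, with fold enrichments of 2.53, 2.92 and 3.22 in control stomach, Eed KO intestine and Eed KO stomach, and a further member inside the gene was nearest to another start. The control stomach peak of the *Mecom* member began 1108 bases after the start, and those of Eed KO intestine and Eed KO stomach 534 and 485 bases after it. A higher control stomach peak (fold enrichment 7.16) lay at −1282 to −1068 bases from the start. Eed KO stomach also had a peak there (5.51), but neither intestine list did, so that site was not a member. *Six2*, a homeobox factor of the pylorus and stomach, stood at 5.76 and 13.1 CPM in control intestine, 29.5 and 26.3 in Eed KO intestine, 197 and 149 in control stomach and 112 and 118 in Eed KO stomach. Its groups did not overlap in intestine, but the change of 1.57 ± 0.33 (SE) on the log2 scale missed the threshold (adjusted p 0.053). *Sfrp2*, a secreted Wnt antagonist with 2 members, stood at 51.3 and 75.3 CPM in control intestine, 98.3 and 145 in Eed KO intestine, 127 and 151 in control stomach and 337 and 393 in Eed KO stomach, and its change in intestine also missed the threshold (log2 fold change 0.94 ± 0.23 (SE), adjusted p 0.089). *Tbx3*, a T-box repressor, showed 0.83 ± 0.26 (SE) on the log2 scale in intestine (adjusted p 0.17). Of the 12 factors 6 were higher in Eed KO intestine and 1 was lower, and of the 5 with members 2 were higher. Over all tested genes 2.38% were higher and 0.228% were lower.

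Of the 23 factors that both organs share, 3 had members: *Gata4*, *Tcf21* and *Meis2*. *Gata4*, a zinc finger factor, stood at 1.01 and 1.38 CPM in control intestine, 10.2 and 20.5 in Eed KO intestine, 14.5 and 15.5 in control stomach and 87.2 and 93.8 in Eed KO stomach. Eed KO intestine reached the level of control stomach, 102% of its mean, and exceeded control intestine by 3.69 ± 0.36 (SE) on the log2 scale (adjusted p 0.0034; lost without control intestine replicate 1). Its member was far from the gene, 45183 bases before the start. *Tcf21* and *Meis2*, which are expressed throughout this mesenchyme, kept high levels in every group, *Tcf21* at 205 to 369 CPM and *Meis2* at 357 to 497. Neither was called in intestine (log2 fold changes −0.28 ± 0.13 and −0.21 ± 0.09 (SE), adjusted p 0.39 for both).

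**Figure D4:**
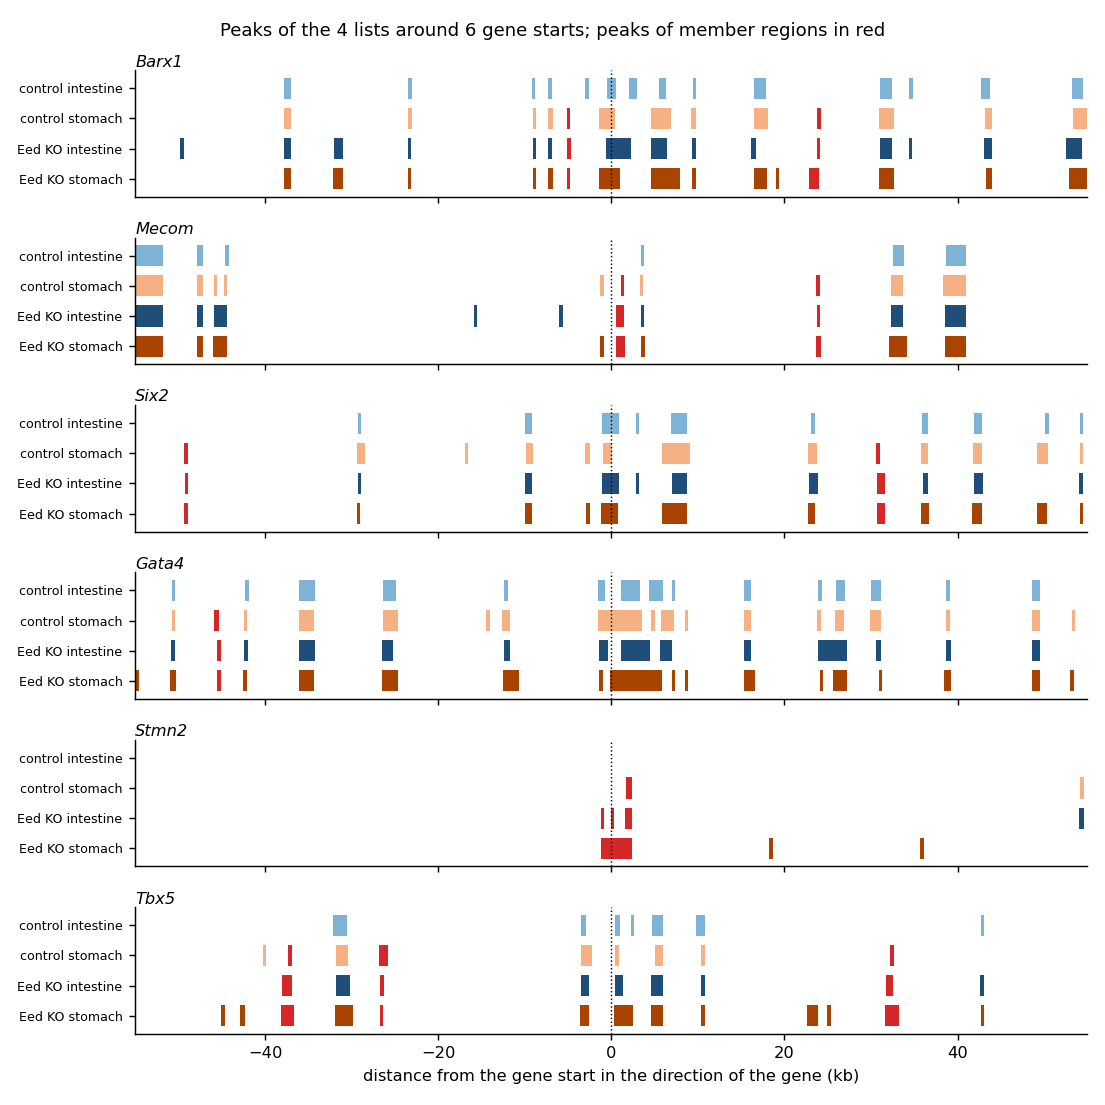
Peaks of the 4 lists around the starts of *Barx1*, *Mecom*, *Six2*, *Gata4*, *Stmn2* and *Tbx5*, by distance from the start in kb in the direction of the gene, with peaks of member regions in red and bars under 400 bases widened to be seen. Control intestine has 14 peaks in the *Barx1* span and none in the *Stmn2* span.

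Genes that PRC2 holds silent in many tissues formed another list, of 59 developmental regulators, and 12 of them had members (19 members in all). Of the 10 that were tested 8 were higher in Eed KO intestine, and of the whole list 27 of 47 tested genes were (2.38% of all tested genes). *Tbx5*, a T-box factor of heart and forelimb with 3 members, stood at 0 and 0 CPM in control intestine, 2.51 and 4.37 in Eed KO intestine, 0.174 and 0.127 in control stomach and 8.64 and 11.5 in Eed KO stomach. With no count in control intestine it was at least 74.0-fold higher in Eed KO intestine (adjusted p 0.0034), measured against a floor of 3 counts over the group. *Emx2*, a homeobox factor, stood at 0 and 0 CPM in control intestine, 0.449 and 0.713 in Eed KO intestine, 1.91 and 1.76 in control stomach and 11.5 and 17.2 in Eed KO stomach, at least 12.5-fold higher in Eed KO intestine (adjusted p 0.017). *En1*, another homeobox factor, had a ratio of 69.8 (95% counting interval 12.2 to 2793; adjusted p 0.044), and *Irx2*, of the Iroquois family, rose by 3.8 ± 0.57 (SE) on the log2 scale (adjusted p 0.017). *Tbx5* and *Emx2* were thus at 0 in control intestine and at 0.449 to 4.37 CPM in the Eed KO intestine libraries. Control stomach was also low for *Tbx5*, at most 0.174 CPM, although its members have a control stomach peak. *Tbx5* kept its call with any library left out, and *Emx2*, *En1* and *Irx2* lost theirs without either control intestine library or Eed KO intestine replicate 2, and *En1* kept its call in 1 of the 8 fits only.

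Outside the lists, *Tfap2b* and *Tfap2a*, factors of neural crest and surface ectoderm, were among the most changed member genes. *Tfap2b* had no count in either control group and was at least 37.9-fold higher in Eed KO intestine (adjusted p 0.033), where it stood at 0.976 and 2.57 CPM. *Tfap2a* rose by 4.22 ± 0.45 (SE) on the log2 scale (adjusted p 0.0047). *Esrp1*, an epithelial splicing factor gene, had 1 count in control intestine and 81 in Eed KO intestine, a ratio of 72.5 (95% counting interval 12.7 to 2899; adjusted p 0.037). *Acta1*, the skeletal muscle actin gene, stood at 0.197 and 0.0673 CPM in control intestine, 2.77 and 6.93 in Eed KO intestine, 0.174 and 0.382 in control stomach and 3.94 and 6.47 in Eed KO stomach, with a change of 5.11 ± 0.7 (SE) on the log2 scale (adjusted p 0.012). All of these were lost from the calls when either control intestine library was left out, and *Esrp1* also without Eed KO intestine replicate 2. Some epithelium markers moved with *Esrp1*: *Epcam* went from 4.19 and 3.87 CPM in control intestine to 9.5 and 6.62 in Eed KO intestine and *Cdh1* from 0.45 and 0.37 to 1.64 and 1.97. *Cldn4*, *Cldn6*, *Cldn7*, *Shh*, *Cdx1* and *Cdx2* also lay higher in both Eed KO intestine libraries, at 1.77 CPM or less, and none was called. *Krt8*, *Krt18*, *Krt19*, *Elf3*, *Vil1* and *Pdx1* were not higher in both libraries. The 15 markers summed to 68.0 and 108 CPM in control intestine and 86.3 and 76.3 in Eed KO intestine, and 1 of the 13 tested was called higher, *Sox2*. The part of epithelial cells in the *Esrp1* counts was not tested. The 3 lower member genes, named because they are so few, were *Cfap54* (log2 fold change −2.09 ± 0.41 (SE), adjusted p 0.042), *Gm11816* (−3.77 ± 0.55, adjusted p 0.015) and *Nmur2* (−4.54 ± 0.86, adjusted p 0.038), each with a mean under 1 CPM over the 8 libraries. With spike-in scaling *Cfap54* was at −0.37. *Cfap54* lost its call whichever of the 8 libraries was left out, and *Gm11816* and *Nmur2* did without either control intestine library or either Eed KO intestine library. With DESeq2 and 1 RUVg factor (a factor of unwanted variation estimated from the spike-in) 61 member genes were higher and 27 lower (3.16% and 1.4%; 1.94% and 0.968% of all tested genes), 1 of the 27 being among these 3, so the small number of lower genes was not kept under that normalization.

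Genes with a member within 1 kb of their start numbered 321, and 80 of these promoter member genes were tested. The distance is that of the merged region, and the control stomach peaks at *Stmn2* and *Mecom* began over 1 kb from the start. In Eed KO intestine 6 of them were higher and 0 were lower by edgeR (7.5% higher; 2.38% of all tested genes), and DESeq2 gave 8 higher and 0 lower (628 and 57 of all 16218 tested genes). At an unadjusted p under 0.05, 15 of the 80 were higher and 1 was lower by edgeR, against 1750 and 524 of all tested genes. The 6 were *Stmn2*, *Mecom*, *Chrna4*, *Myct1*, *Cd93* and *Esam*. *Stmn2*, a neuronal tubulin-binding protein gene, stood at 1.21 and 1.35 CPM in control intestine, 22.7 and 11.2 in Eed KO intestine, 5.28 and 4.05 in control stomach and 38.5 and 44.3 in Eed KO stomach, and it rose by 3.73 ± 0.36 (SE) on the log2 scale (adjusted p 0.0035; lost without control intestine replicate 1). The control intestine list had no peak within 55 kb of its start, and the member of 3582 bases there had fold enrichments of 2.64 in control stomach, 4.02 in Eed KO intestine and 3.84 in Eed KO stomach. These values come from different places. The control stomach peak lay 1754 to 2349 bases after the start, and the Eed KO intestine peak of 4.02 at −1221 to −1090. Other Eed KO intestine peaks lay at −38 to 253 and 1602 to 2360, and the Eed KO stomach peak ran from −1206 to 2354. Only the Eed KO lists thus had a peak at the start itself. *Chrna4*, a nicotinic receptor subunit gene, stood at 0.534 and 0.404 CPM in control intestine, 3.40 and 5.08 in Eed KO intestine, 3.22 and 2.40 in control stomach and 11.3 and 14.7 in Eed KO stomach and rose by 3.15 ± 0.33 (SE) on the log2 scale (adjusted p 0.0047). Leaving out either control intestine library removed that call. *Myct1*, *Cd93* and *Esam* are genes of endothelium, and they rose by 2.64 ± 0.41, 2.37 ± 0.28 and 1.82 ± 0.32 (SE) on the log2 scale. Each of these 3 lost its call without control intestine replicate 1, *Myct1* and *Esam* also without either Eed KO intestine library, *Esam* without either control stomach library, and *Myct1* and *Cd93* without control intestine replicate 2. The number of higher promoter member genes was 0 without control intestine replicate 1 and 3 without control intestine replicate 2.

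Markers of endothelium moved with these genes. The 10 endothelium markers, none of them at 0 in all libraries, summed to 17.2 and 23.0 CPM in control intestine, 58.0 and 57.9 in Eed KO intestine, 21.8 and 21.6 in control stomach and 33.9 and 57.8 in Eed KO stomach, with *Kdr* the most abundant. Of the 10, 6 were higher in Eed KO intestine (2.38% of all tested genes). *Pecam1*, *Tie1*, *Esam*, *Erg* and *Sox17* had members, and 4 of these 5 were higher. *Tie1*, an endothelial receptor gene, was at 0.562 and 1.35 CPM in control intestine and 5.3 and 5.19 in Eed KO intestine. Whether endothelial cells among the sorted cells contributed to the counts of member genes was not tested. The 11 enteric neural crest markers summed to 341 and 358 CPM in control intestine, 283 and 311 in Eed KO intestine, 226 and 208 in control stomach and 204 and 219.8 in Eed KO stomach. *Hand2*, which mesenchyme also expresses, had the highest mean of the 11. *Ednrb*, which has a member, stood above it in control intestine, at 201 and 188 CPM against 130.5 and 161. In Eed KO intestine *Ednrb* stood at 86.0 and 162 CPM and was not called. *Stmn2* was the only 1 of the 11 to be higher in Eed KO intestine, and the defining marker *Sox10* stood at or under 1.15 CPM in every library and at 0 in none.

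**Figure D5:**
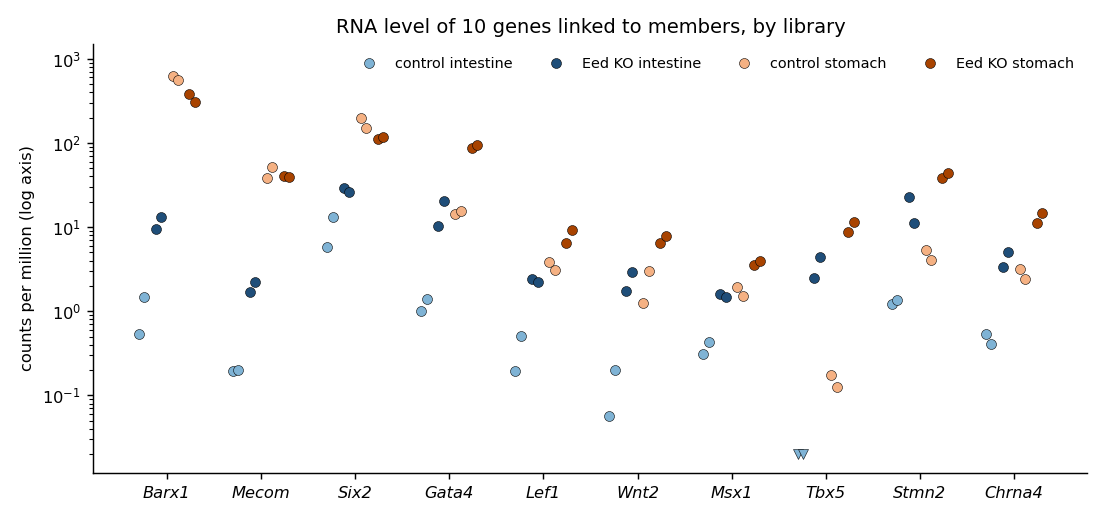
RNA level in CPM (log axis) of 10 genes linked to members, 1 point per library, 2 libraries per group, with triangles for libraries at 0. Eed KO intestine lies above control intestine for all 10, and for *Barx1*, *Mecom*, *Six2* and *Lef1* below control stomach. All but *Six2* are among the 81 member genes called higher in Eed KO intestine (4.2% of those tested, 2.38% of all tested genes), so their direction was set by the choice.

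The second comparison asks whether genes beside members differ between the control organs, and it shares the control intestine libraries with the first. Of the tested member genes 110 were higher in control stomach (5.71%; 3.39% of all tested genes) and 54 were lower (2.8%; 1.68% of all). The shares exceeded the background in both directions, so the genes beside members were not all gastric in expression. Genes linked to regions with peaks in both stomach lists alone had 7.04% higher in stomach and 2.17% lower. With spike-in scaling 24 were higher and 14 lower (1.24% and 0.726%; 0.524% and 0.432% of all). The shares called higher and lower fell with any control library left out, among member genes and among all tested genes. Counts of member genes in those fits are given with the processing.

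*Ptgdr*, a prostaglandin receptor gene, stood at 0 and 0 CPM in control intestine, 0 and 0.143 in Eed KO intestine, 4.52 and 8.36 in control stomach and 1.74 and 1.37 in Eed KO stomach, at least 143-fold higher in control stomach than in control intestine (adjusted p 0.0034). Its Eed KO intestine mean was 1.11% of that of control stomach. *Barx1* and *Mecom* differed between the control organs by 9.23 ± 0.41 and 7.82 ± 0.27 (SE) on the log2 scale (adjusted p 5.9e-05 and 2.5e-05). *Emx2* was at least 39.9-fold and *Rasgrf1*, a Ras exchange factor gene, at least 11.2-fold higher in control stomach (adjusted p 0.0016 and 0.028), and *Rasgrf1* lost its call without any 1 of the 4 control libraries. In the opposite direction, *Nkx2-3*, the homeobox factor of intestinal mesenchyme, stood at 153 and 180.1 CPM in control intestine, 138 and 143 in Eed KO intestine, 2.06 and 0.204 in control stomach and 18.6 and 25.3 in Eed KO stomach. It had a member 3977 bases from its start although its RNA was lower in both control stomach libraries than in both control intestine libraries (log2 difference −7.24 ± 0.67 (SE), adjusted p 0.0011). *Hoxc11*, a posterior Hox gene, stood at 1.10 and 0.639 CPM in control intestine, 4.96 and 3.28 in Eed KO intestine, 0 and 0 in control stomach and 4.21 and 5.65 in Eed KO stomach, at least 21.8-fold lower in control stomach (adjusted p 0.0059), and it was the only 1 of 39 Hox genes with a member. *Aldh1a7*, an aldehyde dehydrogenase gene, differed by −4.05 ± 0.31 (SE) on the log2 scale, *Pitpnm3* by −3.95 ± 0.54, *Esrrb*, a nuclear receptor gene, by −3.53 ± 0.33 and *Adamts18*, a metalloprotease gene, by −3.42 ± 0.33 (adjusted p 0.00055 to 0.0054). The members of *Aldh1a7* and *Esrrb* thus had a listed peak in control stomach and none in control intestine beside RNA that was higher in control intestine.

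Of 12 intestinal factors *Nkx2-3* and *Wnt2* had a member each. *Wnt2*, a Wnt ligand, stood at 0.0562 and 0.202 CPM in control intestine, 1.74 and 2.94 in Eed KO intestine, 1.25 and 3.03 in control stomach and 6.49 and 7.79 in Eed KO stomach; it was higher in control stomach than in control intestine (log2 difference 4.08 ± 0.68 (SE), adjusted p 0.012) and rose in Eed KO intestine by 4.2 ± 0.68 (SE, adjusted p 0.022; lost without either control intestine library or Eed KO intestine replicate 2). Among 9 pylorus factors, which include *Barx1* and *Six2* again, *Nkx2-5* also had a member. *Nkx2-5*, the homeobox factor that marks the pyloric border, stood at 0.478 and 1.18 CPM in control intestine, 3.06 and 4.42 in Eed KO intestine, 32.1 and 6.40 in control stomach and 12.8 and 16.6 in Eed KO stomach. Its control stomach libraries lay far apart, and its change in intestine was not called (log2 fold change 2.2 ± 0.82 (SE), adjusted p 0.27).

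In the Wnt pathway 9 of 37 genes had members: the ligands *Wnt2*, *Wnt3a*, *Wnt4*, *Wnt7a* and *Wnt8a*, the potentiator *Rspo1*, the antagonist *Sfrp2* and the targets *Axin2* and *Lef1*. Of the 6 tested 2 were higher in Eed KO intestine, and of the 30 tested in the list 4 were (2.38% of all tested genes). *Lef1*, a transcription factor of the pathway, stood at 0.197 and 0.505 CPM in control intestine, 2.45 and 2.20 in Eed KO intestine, 3.86 and 3.06 in control stomach and 6.44 and 9.24 in Eed KO stomach and rose by 2.76 ± 0.41 (SE) on the log2 scale (adjusted p 0.016; lost without control intestine replicate 1). *Wnt3a*, *Wnt7a* and *Wnt8a* did not pass the count filter, with means of 0.0338, 0.0266 and 0 CPM. *Wnt4* and *Rspo1* were not called in intestine (log2 fold changes −0.23 ± 0.37 and −0.66 ± 0.19 (SE)), and *Axin2*, at 12.1 to 20.4 CPM over the 8 libraries, changed by 0.25 ± 0.21 (SE).

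In the BMP pathway 8 of 26 genes had members: the ligands *Bmp3*, *Bmp6*, *Bmp7*, *Gdf7* and *Gdf10*, the antagonist *Chrdl2* and the targets *Msx1* and *Msx2*. The 2 targets were the 2 genes of the list that were higher in Eed KO intestine (2.38% of all tested genes). *Msx1* stood at 0.309 and 0.437 CPM in control intestine, 1.61 and 1.48 in Eed KO intestine, 1.94 and 1.53 in control stomach and 3.51 and 4.00 in Eed KO stomach and rose by 2.05 ± 0.3 (SE) on the log2 scale (adjusted p 0.015; lost without either control intestine library). *Msx2* had 2 counts in control intestine and 67 in Eed KO intestine, a ratio of 30.0 (95% counting interval 7.98 to 253; adjusted p 0.017; lost without control intestine replicate 1). Its member, 25167 bases from the start, had fold enrichments of 4.5, 6.05 and 6.87 in control stomach, Eed KO intestine and Eed KO stomach, above the member medians. *Bmp3* stood at 39.1 and 43.7 CPM in control intestine, 14.9 and 29.2 in Eed KO intestine, 2.99 and 6.09 in control stomach and 5.90 and 10.4 in Eed KO stomach, highest in control intestine, and its member peaks of 5.3, 7.09 and 8.29 were also above the medians. *Bmp7* and *Gdf10* changed by 0.16 ± 0.19 and 0.03 ± 0.31 (SE) on the log2 scale in intestine, and *Bmp6* by −0.92 ± 0.19 (adjusted p 0.05), while *Gdf7* stayed under 1 CPM in every library and *Chrdl2* was not called (0.86 ± 0.43).

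In stomach, where both lists hold the members, 151 tested member genes were higher in Eed KO than in control (7.83%; 4.84% of all tested genes) and 15 were lower (0.778%; 0.808% of all). The shares called higher and lower fell with any stomach library left out, among member genes and among all tested genes. Counts of higher member genes in those fits are given with the processing. With spike-in scaling 1829 member genes were higher and 1 was lower (94.9% and 0.0519%; 95.1% and 0.117% of all tested genes). The share higher did not exceed the background under that scaling. With 1 RUVg factor 60 member genes were higher and 38 lower (3.11% and 1.97%; 2.33% and 1.88% of all tested genes), so the balance of directions was not kept there. *Gata4* rose there by 2.59 ± 0.3, *Stmn2* by 3.15 ± 0.33 and *Chrna4* by 2.21 ± 0.27 (SE) on the log2 scale (adjusted p 0.003, 0.0022 and 0.0039), so these 3 genes rose in both organs. Their merged regions held a stomach peak in both genotypes. At *Stmn2*, however, the control stomach peak lay 1754 to 2349 bases after the start, and only the Eed KO stomach peak covered the start. *Barx1*, *Mecom* and *Six2* were not called in stomach (log2 fold changes −0.78 ± 0.27, −0.19 ± 0.17 and −0.59 ± 0.31 (SE)).

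The difference between the organs was tested as the Eed KO change in intestine minus that in stomach, called at an adjusted p under 0.2 and a difference over 1 on the log2 scale. Of the tested member genes 4 had a higher change in intestine (0.207%; 0.191% of all tested genes) and 10 a lower one (0.519%; 0.271% of all). The 4 were *Barx1* (log2 difference 4.31 ± 0.46 (SE), adjusted p 0.031), *Mecom* (3.48 ± 0.36, adjusted p 0.03), *Sez6* and *Nr2f1*. *Nr2f1*, a nuclear receptor gene, stood at 29.7 and 33.8 CPM in control intestine, 61.5 and 63.9 in Eed KO intestine, 139 and 179.6 in control stomach and 132 and 129.9 in Eed KO stomach. Eed KO intestine lay between control intestine and control stomach. *Hoxc11* and *Nkx2-3* were among the 10 with a lower change in intestine, as both rose in Eed KO stomach, *Nkx2-3* from 2.06 and 0.204 CPM to 18.6 and 25.3. Of 14 calls in all, the count was 3 without Eed KO stomach replicate 2, 4 and 6 without control intestine replicate 1 or 2 and 8 and 6 without control stomach replicate 1 or 2. With the replicate number as a block it was 41.

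These data have limits. From 1 pooled list per condition, neither the members' gain in Eed KO intestine nor their absence in control intestine was tested, and most members were low peaks. With 2 RNA libraries per group, most calls in intestine rested on both control intestine libraries, and the nearest start within 50 kb is a convention that names 1 gene per region. *Bapx1*-driven Cre and the GFP sort restrict the cells to those with past *Bapx1* activity. Which cells among them carried a member or its RNA was not measured.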

How the data were processed

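The deposited RNA values are counts of read pairs per gene symbol, which the authors made with STAR and featureCounts. In the deposited peak lists, which the authors called with MACS2 on pooled replicates, fold enrichment is a ratio over background and the q value is given as its −log10. The lists go down to a −log10 q near 1, below the stated cutoff of 2, and hold peaks of chromosome X although the authors kept autosomal reads; they were used as deposited. Peaks were merged with bedtools 2.31.1, and a member region has a peak of control stomach, Eed KO stomach and Eed KO intestine and none of control intestine. A region was linked to the gene with the nearest start within 50 kb, with starts from GENCODE annotation, and the middle 300 bases were read from GRCm38. Genes that passed edgeR's count filter (16218 of 43280) were fitted over all 8 embryonic RNA libraries with edgeR 4.0.16 (quasi-likelihood, TMM scaling, Benjamini-Hochberg over all tested genes; biological coefficient of variation 15.8%). CPM use TMM-scaled library sizes and do not correct for gene length. A fold against a group with no counts was computed against a floor of 3 counts over the group, and ratios with 1 to 3 counts have 95% exact counting intervals, which cover counting error only. The edgeR fit was tested on simulated data. Named genes are *Eed*, the called member and promoter member genes with the largest changes and a mean of at least 1 CPM, genes with the most members, the 10 highest members, and genes of fixed lists of gut factors, Hox, Wnt and BMP genes that have members; *Myct1*, *Cfap54*, *Gm11816*, *Nmur2*, genes of the PRC2-silenced and marker lists and genes with a called difference between the organs were named after their values were seen. Not every gene that these rules give is named. The members and lists were chosen with earlier results of these data known. The alternatives tried were stricter peaks, other merging and linking distances, lists of equal length, DESeq2 1.42.0 with and without 1 RUVg factor, spike-in scaling, no count filter, a replicate block and leaving out each library. Adult libraries were not used.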

Additional observations from a re-analysis of the deposited data

Results flagged for a closer look

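The Eed KO change in RNA differed between the organs, by the test of the difference itself in edgeR, in 14 genes linked to members. The change was higher in intestine in 4 (0.207% of tested member genes; 0.191% of all tested genes, a share near the background) and lower in 10 (0.519%; 0.271% of all). Given as the log2 change in intestine minus that in stomach, the difference was 4.31 for *Barx1* (3.53 in intestine and −0.78 in stomach), 3.48 for *Mecom* (3.28 and −0.19), 3.46 for *Sez6* (2.41 and −1.05) and 1.27 for *Nr2f1* (0.98 and −0.28). It was −1.2 for *Mgp* (−0.88 and 0.32), −1.37 for *Ccbe1* (−0.76 and 0.61), −1.39 for *Ppargc1a* (−0.15 and 1.24), −1.46 for *Adora1* (−0.89 and 0.57) and −1.59 for *Asb4* (0.04 and 1.63). *Cldn11* had −1.67 (1.57 and 3.24), *Gsg1l* −2.0 (0.11 and 2.1) and *Kcnh1* −2.11 (−0.29 and 1.83). *Nkx2-3* had −4.57 (−0.25 and 4.32). For *Hoxc11* the fitted value was −8.23 (2.23 and 10.46), and its stomach change is at least 121-fold, since control stomach had no count. Adjusted p ranged from 0.03 to 0.2. Across the alternative fits the number of such member genes ran from 2 with spike-in scaling to 51 without the count filter, and all 14 were also called by DESeq2.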

How the results depend on the processing

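Peaks of a −log10 q of at least 2 gave 4994 members, regions merged within 250 bp gave 7387, and both settings kept the share near starts (4.21% and 4.18%). With peaks of at least 5, members fell in number to 2409 and the share near starts was 6.31%. A reciprocal overlap of 50% gave 3166 members, and a window of 5 kb a share of 13.7%. The 100000 highest peaks of each list, a setting chosen after seeing the data, gave 4549 members; member genes lower in Eed KO intestine were then 1, promoter member genes higher 2, member genes higher in control stomach 67 and member genes with a different response in the organs 9.

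For genes, peaks of at least 2 gave 3 promoter member genes higher in Eed KO intestine and 73 member genes higher in control stomach. Peaks of at least 5 gave 41 member genes higher and 1 lower in Eed KO intestine, 49 higher and 25 lower in control stomach, 61 higher in Eed KO stomach and 3 with a different response. Links limited to 10 kb gave 36 and 1 in Eed KO intestine, 35 and 27 in control stomach, 68 in Eed KO stomach and 7 with a different response. Links to tested genes alone gave 5 member genes lower in Eed KO intestine. A promoter window of 5 kb gave 27 promoter member genes higher and 1 lower. These settings change which regions and genes are counted.

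DESeq2 gave 120 member genes higher and 4 lower in Eed KO intestine (6.22% and 0.207%; 3.87% and 0.351% of all tested genes) and 45 with a different response in the organs. With 1 RUVg factor it gave 27 member genes and 2 promoter member genes lower in Eed KO intestine, 60 higher and 38 lower in Eed KO stomach and 48 with a different response; the cause was not tested. Without the count filter 141 member genes were higher and 5 lower in Eed KO intestine (4.56% and 0.162%; 2.89% and 0.26% of all), and 51 had a different response. Spike-in scaling moved the median log2 change by 1.85 in intestine, −0.297 between control organs, 2.39 in stomach and −0.54 in the difference between the organs. It called 1635 member genes (84.8%) and 84.3% of all tested genes higher in Eed KO intestine, 49 promoter member genes higher, 24 member genes higher and 14 lower in control stomach (1.24% and 0.726%; 0.524% and 0.432% of all), 1829 higher in Eed KO stomach (94.9%; 95.1% of all) and 2 with a different response.

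The labels do not say whether replicates of the same number share embryos. With the number as a replicate block (2 pairs per comparison), 115 member genes were higher and 6 lower in Eed KO intestine (5.96% and 0.311%; 3.55% and 0.345% of all) and 41 had a different response. The residuals of replicate 1 in the 2 KO organs had a correlation of 0.748 and in the 2 control organs of 0.37, against 0.138 to 0.282 between genotypes.

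Leaving out 1 library at a time leaves an arm with 1 library, which is assumed to vary like the others. For Eed KO intestine, the control organs and Eed KO stomach, the share of all tested genes called fell wherever the number of member genes called fell. Member genes higher in Eed KO intestine ranged from 10 (without control intestine replicate 1) to 78, with 16 without control intestine replicate 2 and 39 without Eed KO intestine replicate 2; lower ones ranged from 0 (without control intestine replicate 1 or 2) to 3. Promoter member genes higher ranged from 0 (without control intestine replicate 1) to 7, with 3 without control intestine replicate 2, and lower ones were 0 throughout. Member genes higher in control stomach ranged from 49 (without control intestine replicate 1) to 111, with 69 and 60 without control stomach replicate 1 or 2. Those lower ranged from 30 (without control stomach replicate 2) to 52, with 34 without control intestine replicate 2 and 35 without control stomach replicate 1. Member genes higher in Eed KO stomach ranged from 56 (without control stomach replicate 2) to 164, with 74 without control stomach replicate 1 and 68 without Eed KO stomach replicate 2. Those with a different response ranged from 3 (without Eed KO stomach replicate 2) to 20, with 4 and 6 without control intestine replicate 1 or 2 and 8 and 6 without control stomach replicate 1 or 2.

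Of 25 genes followed in Eed KO intestine and 12 between the control organs, none changed direction in these fits. Of the 25, all kept their side of the threshold with DESeq2, the replicate block and no count filter, 22 did with 1 RUVg factor and 23 with spike-in scaling, but 4 did without control intestine replicate 1 and 10 without control intestine replicate 2. *Barx1*, *Tbx5* and *Eed* were called with any library left out.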
